A study of Gallus gallus with 4 samples.

Results

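Among the transcription units (TUs) assembled from RNA of chicken lampbrush-stage oocytes, 711 of the 20425 on chromosomes 1 to 15 and 17 to 28 spanned 100 kb or more. A TU was 1 gene of the StringTie assembly, for which the transcript of highest FPKM (fragments per kilobase of exon, scaled to the size of the run) stood in. Its span was the distance between its outermost exon ends, introns included. The very long TUs were chosen by this span, so span itself, and the longest intron that it bounds, are described here and not tested. They are set beside the 4382 TUs of 20 to 50 kb on the same chromosomes. A further 92 TUs of 100 kb or more lay on other sequences of the assembly and were left out, and the whole assembly held 22884 TUs.

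The study prepared strand-specific poly(A) RNA libraries from single oocytes of healthy hens with no treatment, 2 from isolated nuclei and 2 from ooplasm. The reads were pooled before assembly, together with total RNA reads of oocyte nuclei from earlier work, and whether ooplasm reads entered the pool is not stated in the methods. No value therefore belongs to 1 library, no replicate error exists, the depth per library is unknown, and no test between TU classes was run. The 95% intervals given below (order statistics for medians, Wilson for shares) cover the number of TUs only.

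In growing oocytes of birds and amphibians, chromosomes unfold into lampbrush form, in which lateral loops carry closely packed RNA polymerases along 1 or more transcription units. Nascent transcripts lengthen along a loop in the direction of transcription, and a long unit gives a long loop contour. In vertebrates, the length of a gene is set mostly by its introns, which are removed from the transcript, whereas its exons stay in the mature RNA. StringTie links distant exons through reads that cross a splice junction, so the span of a very long TU rests on its junctions as well as on its exons.

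The median very long TU spanned 133.8 kb, with quartiles of 114.2 and 173.6 kb and a maximum of 838.7 kb. Of the 711, 445 lay between 100 and 150 kb and 51 reached 300 kb or more. Both directions of transcription were represented, with 346 TUs from the forward and 365 from the reverse run of the assembler, the 2 strand-specific assemblies that make up the file. The TUs just above the threshold were REV.4642 with 100.052 kb, REV.3279 with 100.125 kb and FORW.4090 with 100.142 kb. Just below it were REV.8439 with 99.973 kb, FORW.2696 with 99.925 kb and FORW.5286 with 99.691 kb. These 6 TUs held 11, 32, 28, 27, 3 and 15 exons in that order, so the threshold fell within a continuous range of structures.

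Very long TUs carried more exons than TUs of 20 to 50 kb, but over the whole classes their median summed exon length was not higher. The median exon number was 16 (95% interval 14 to 17) in very long TUs and 6 (6 to 7) in TUs of 20 to 50 kb. The summed exon length had a median of 9.51 kb (8.61 to 10.3) in very long TUs and 10.8 kb (10.3 to 11.4) in TUs of 20 to 50 kb. Exons thus filled a median of 6.53% (5.92 to 7.23) of the span of very long TUs, against 36.0% (33.8 to 38.2) in TUs of 20 to 50 kb. The exonic share was under 5% in 287 very long TUs (40.4%) and in 97 TUs of 20 to 50 kb (2.21%). At least 20 exons were found in 275 very long TUs (38.7%) and in 615 TUs of 20 to 50 kb (14.0%). At like exon number, the median summed exon length was higher in very long TUs in every class of multi-exon TUs. With 10 to 19 exons it was 6.665 kb in very long TUs and 5.631 kb in TUs of 20 to 50 kb. With 20 to 39 exons it was 8.386 kb and 6.734 kb in these classes. The median exon of a TU measured 140 bp in very long TUs and 177 bp in TUs of 20 to 50 kb at the median. Its upper quartile was 180 bp in very long TUs but 9637 bp in TUs of 20 to 50 kb, so many of the latter consisted of long exons.

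The difference in span lay in the introns. The longest intron of a multi-exon TU had a median of 49.3 kb (46.2 to 51.5, n = 695) in very long TUs and 6.42 kb (6.13 to 6.73, n = 3830) in TUs of 20 to 50 kb. It took up 31.9% (30.2 to 34.0) of the span in very long TUs and 21.3% (20.5 to 22.1) in TUs of 20 to 50 kb. A TU can pass the threshold through 1 long intron, so this share too is tied to the rule and is a description. The median intron of a TU was longer too, with 2.95 kb in very long TUs and 1.17 kb in TUs of 20 to 50 kb. Of the 19 chromosomes that held 5 or more very long TUs, the median exon number was higher in very long TUs than in TUs of 20 to 50 kb on 17. The median summed exon length was higher in very long TUs on 8 and lower on 11. The longest intron and the exonic share contain the span itself, and their direction was the same on all 19.

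**Figure D1:**
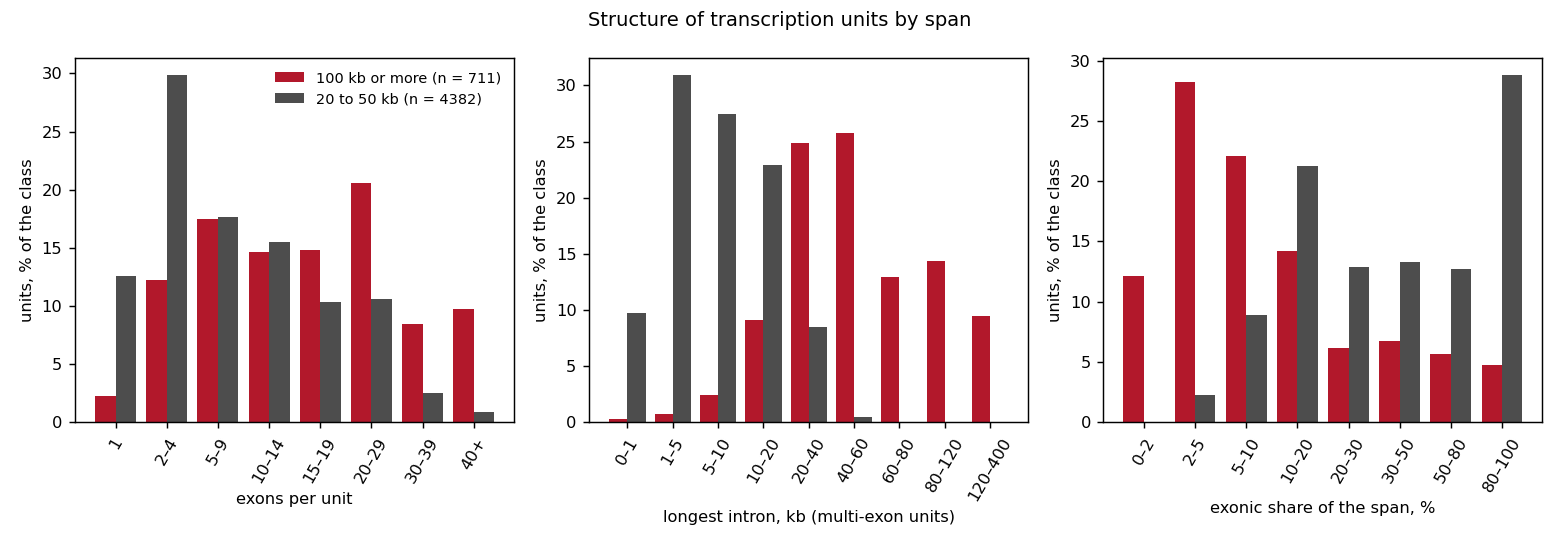
Percentage of TUs in each class (y axes) by number of exons, by length of the longest intron in kb (multi-exon TUs, n = 695 and 3830) and by exonic share of the span in %. Red bars are TUs of 100 kb or more and grey bars TUs of 20 to 50 kb; 25.8% of very long TUs had a longest intron of 40 to 60 kb, against 0.47% of TUs of 20 to 50 kb.

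The 5 longest TUs were FORW.2677, REV.1491, REV.7581, REV.7448 and REV.3127. The file gives no gene names and no annotation of its build, ASM2420605v2, was used here, so they are named by their identifiers in the file. FORW.2677 ran over 838.7 kb on chromosome 3, from 4901346 to 5739999, with 19 exons that summed to 5.35 kb, or 0.638% of its span. Its longest intron measured 228.7 kb and was intron 5 counted from the 5′ end, and its last exon of 3811 bp held most of its exonic length. REV.1491 on chromosome 2 (8808761 to 9431477) spanned 622.7 kb with 23 exons, and REV.7581 on chromosome 13 (5834096 to 6442246) spanned 608.2 kb with 30 exons. REV.7448 on chromosome 12 (12804941 to 13327320) covered 522.4 kb with 8 exons, and REV.3127 on chromosome 3 (61835148 to 62351625) covered 516.5 kb with 7 exons. The longest intron of each of these 5 took up between 20.4% and 47.9% of the span, and the rest was spread over further introns.

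In other very long TUs 1 intron made up most of the span. In 158 of 695 multi-exon TUs (22.7%) the longest intron made up 50% or more of the span, against 562 of 3830 (14.7%) among TUs of 20 to 50 kb. It reached 80% or more in 38 very long TUs (5.47%) and in 134 TUs of 20 to 50 kb (3.50%). In TUs of 50 to 100 kb this share was 5.41% (84 of 1554), close to that of very long TUs. REV.10061 on chromosome 28 (289472 to 666523) had the longest intron of all, 369.7 kb or 98.1% of its span, between an exon of 1096 bp with a coverage of 11.1 reads per base and a last exon of 1023 bp with 5.16 reads per base. In REV.5437 on chromosome 6 (14938619 to 15303984) an intron of 343.7 kb led to a last exon of 132 bp. In FORW.9734 on chromosome 24 (5688880 to 6022061) 8 exons lay close together at the 5′ end and the last followed after an intron of 329.2 kb. The 38 TUs with such an intron had a median of 4 exons and a median FPKM of 1.61, below the median of 3.82 over all very long TUs. Very long TUs with 2 to 4 exons had a median FPKM of 1.31 (1.14 to 1.61), so the value was not low for so few exons. TUs of 20 to 50 kb with such an intron had 1.18, also below the 3.25 over their whole class. With the longest intron taken away, 414 of the 711 TUs (58.2%) would have spanned less than 100 kb, and 297 would have stayed above it. The file gives no number of junction reads, so the support of single introns was not tested.

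**Figure D2:**
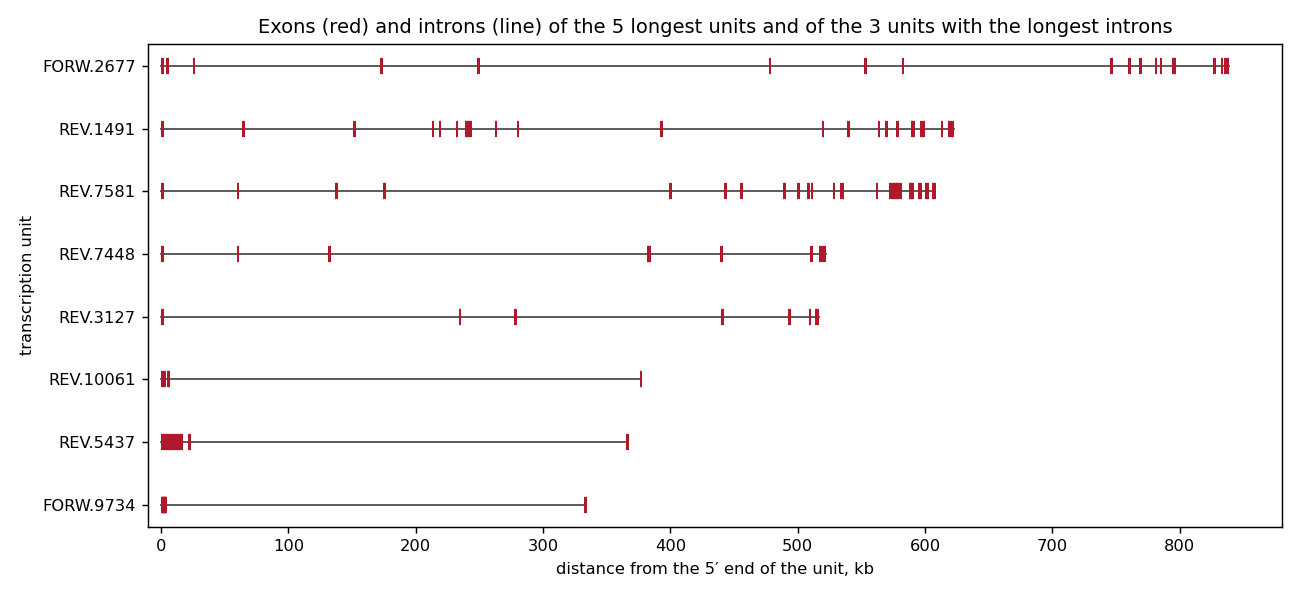
Exons (red blocks, the shortest widened to be visible) and introns (grey lines) of the 5 longest TUs and of the 3 TUs with the longest introns, drawn by distance from the 5′ end in kb (x axis). In the 5 longest TUs the exons are spread over up to 838.7 kb, whereas in REV.10061, REV.5437 and FORW.9734 nearly all exons lie at the 5′ end and 1 lies beyond an intron of 329.2 to 369.7 kb.

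The longest intron tended to lie near the 5′ end in both classes. Among TUs with 5 or more exons it was the first intron in 205 of 608 very long TUs (33.7%, 30.1 to 37.6) and in 949 of 2523 TUs of 20 to 50 kb (37.6%, 35.7 to 39.5). It was among the first 3 introns in 64.0% of very long TUs and in 61.2% of TUs of 20 to 50 kb, and it was the last intron in 6.25% and 7.13% of the TUs of these classes. The intervals of the shares for the first intron overlapped, so no difference in the position of the longest intron was shown between these classes. In TUs of 50 to 100 kb the share for the first intron was 42.2% (39.4 to 45.1), above the interval of very long TUs. Their share for the first 3 introns was 65.1%, close to that of very long TUs.

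In a minority of very long TUs, exons filled most of the span or no intron was listed. Exons filled 50% or more of the span in 74 of them (10.4%), against 1819 TUs of 20 to 50 kb (41.5%). An exon of 50 kb or more was carried by 59 very long TUs (8.30%). TUs of 20 to 50 kb are too short to hold one. The share was 14.0% in TUs of 50 to 100 kb (235 of 1677) and 1.44% in all TUs of these chromosomes. Exactly 1 exon was listed for 16 very long TUs (2.25%) and for 552 TUs of 20 to 50 kb (12.6%). The longest of the 16 were FORW.9154 with 144.0 kb on chromosome 20, REV.6543 with 140.3 kb on chromosome 9 and FORW.7316 with 128.2 kb on chromosome 11. Their coverage was below the median of 40.2 reads per base of very long TUs, with 12.4, 6.44 and 10.8 reads per base and FPKM values of 1.17, 0.613 and 1.02. Such uninterrupted coverage over more than 100 kb was joined by the assembler across gaps of up to 300 bp between reads. None of the 16 reached 150 kb.

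At the other end, very long TUs held up to 117 exons. REV.5155 on chromosome 5 (52604057 to 52779313) had 117 exons with a median length of 156 bp over 175.3 kb, and its longest intron measured 17.4 kb. FORW.7195 on chromosome 11 had 97 exons over 160.1 kb and FORW.1119 on chromosome 1 had 93 exons over 105.6 kb. Their median introns were 0.851, 0.579 and 0.619 kb, shorter than the median of 1.17 kb for TUs of 20 to 50 kb. They were longer than the 0.4925 kb of TUs of 20 to 50 kb with 40 or more exons (n = 40). The span of the named TUs was made up of many short introns and exons.

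Very long TUs were close to TUs of 20 to 50 kb in the FPKM of the leading transcript, the one that stood in for the TU. This transcript held a median of 61.0% of the summed FPKM in very long TUs and 82.7% in TUs of 20 to 50 kb. The summed FPKM was not compared between the classes, so the abundance of whole TUs was not tested. The median FPKM was 3.82 (3.40 to 4.19) in very long TUs and 3.25 (3.04 to 3.47) in TUs of 20 to 50 kb. Ranked among all TUs of their run, very long TUs had a median FPKM percentile of 63.5 (61.3 to 65.2) and TUs of 20 to 50 kb one of 60.3 (58.9 to 61.5). The sign of this difference of 3.19 percentile points depended on which TUs were counted: it was −0.86 with single-exon TUs left out, −1.46 with TUs of FPKM of at least 1, −6.21 with each TU represented by its longest transcript and −6.07 without chromosomes 1 to 5. Within single chromosomes the median FPKM was higher in very long TUs on 7 and lower on 12 of 19.

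At like exon number, the leading transcript had a lower median FPKM in very long TUs than in TUs of 20 to 50 kb. Among TUs with 5 to 9 exons the median FPKM was 2.63 (2.22 to 3.61) in 124 very long TUs and 4.65 (4.21 to 5.28) in 775 TUs of 20 to 50 kb. With 10 to 19 exons it was 4.51 (3.82 to 5.67) in 209 very long TUs and 8.12 (7.56 to 8.93) in 1133 TUs of 20 to 50 kb. With 20 to 39 exons it was 5.73 (4.54 to 6.67) in 206 very long TUs and 9.92 (8.83 to 11.4) in 575 TUs of 20 to 50 kb. For 2 to 4 exons and for 40 or more exons the medians were also lower in very long TUs, but their intervals overlapped with those of TUs of 20 to 50 kb. FPKM of pooled poly(A) and total RNA measures steady-state RNA and not the rate of transcription. Fewer molecules of a long RNA and a lower recovery of it cannot be told apart here. In every class of multi-exon TUs, a larger share of very long TUs had several transcripts. With 10 to 19 exons this share was 76.6% in very long TUs and 62.0% in TUs of 20 to 50 kb. How far a split of reads between transcripts lowers the medians of the leading transcript was not tested.

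The 5 very long TUs with the highest FPKM had values of 56.5 to 72.0. REV.5047 on chromosome 5 (44439118 to 44573228) had an FPKM of 72.0 and 11 exons over 134.1 kb. REV.2807 on chromosome 3 (31295861 to 31426550) had an FPKM of 69.4 and 7 exons over 130.7 kb. They were followed by REV.4801 on chromosome 5 with 64.2, REV.7548 on chromosome 13 with 60.4 and REV.4061 on chromosome 4 with 56.5. All 5 lay in the reverse run, whose coverage per FPKM (10.5 reads per base) was close to that of the forward run (10.6 reads per base). All 5 had an exonic share of 2.47% to 8.45%, and 4 of them had 1 assembled transcript.

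Exon coverage from the 5′ to the 3′ end of a TU was read from its leading transcript. It is the coverage that the assembler gave to this transcript, so coverage given to other transcripts of the TU is left out. Whether other transcripts bear on the slopes below was not tested. In REV.3127 the 7 exons had, from the 5′ end, 14.2, 96.2, 125.8, 104.9, 136.3, 93.3 and 156.3 reads per base. The first exon stood apart, and the other 6 were within a 2-fold range. In REV.2807 the exons had 43.7, 245.9, 328.0, 665.3, 811.4, 775.4 and 920.6 reads per base, a climb towards the 3′ end. In REV.5047 they had 280.4, 601.8, 742.9, 752.6, 1134, 1247, 1333, 968.7, 925.0, 945.1 and 741.5 reads per base, highest in the middle of the TU. In REV.4801 the 4 exons had 11.1, 17.9, 151.2 and 756.8 reads per base, with an intron of 170.3 kb between the last pair.

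In FORW.4090, FORW.2165 and FORW.4784 coverage was low towards the 3′ end. It fell over neighbouring exons and not by a steady decline along the TU. Each exon has 1 mean value, so the change within a long exon cannot be seen. The shape of the fall in other very long TUs was not tested. In FORW.4090 on chromosome 4, 28 exons had a median coverage of 155.8 reads per base, while the last exon of 2583 bp had 4.36. Coverage was still 209.2 in the exon that ended 81.2 kb from the 5′ end, and the exons after it had 43.9, 4.55 and 4.36. In FORW.2165 on chromosome 2, the first exon had 122.1 reads per base and the last exon, 22.6 kb long, had 4.25. Coverage was 170.2 in the exon that ended at 28.2 kb and 65.1 in the next, which ended at 35.8 kb. All later exons had 3.90 to 17.5. FORW.4784 on chromosome 5 had an exon median of 144.8 and a last exon of 11.9 reads per base. Its coverage was 368.1 in the exon that ended at 55.3 kb, 82.7 in the next, which ended at 65.1 kb, and 5.39 to 22.3 in all later exons. These were the 3 lowest ratios of the coverage in the last to that in the first 20% of the exonic length, with log2 values of −5.11, −4.33 and −4.38, among very long TUs with at least 10 exons and an FPKM of at least 1. In each of them the upstream neighbour was 0.15 to 0.238 kb away. It lay on the opposite strand for FORW.4090 and FORW.2165 and on the same strand for FORW.4784. Over all very long TUs the upstream gap had a median of 15.8 kb and was 0.177 kb or less in 10%. The nearest gap was 200 bp or less in 14.8% of very long TUs and in 14.4% of all TUs. Whether such a gap bears on the ratio was not tested. The highest ratios, 4.94, 4.58 and 4.35 on the log2 scale, were those of FORW.4997, FORW.6920 and REV.4623. In FORW.4997 the first exon of 3053 bp had 1.02 reads per base and the second 3.97, while the following 11 had between 20.2 and 53.6. That first exon overlapped REV.4839, a nested single-exon TU of the opposite strand. REV.4839 had an FPKM of 18.2, against 1.54 for FORW.4997. Whether this bears on the ratio was not tested. The leading transcript held 32.8%, 54.7% and 31.8% of the summed FPKM in FORW.4997, FORW.6920 and REV.4623. It held 40.9% in FORW.4090 and 100% in FORW.2165 and FORW.4784.

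**Figure D3:**
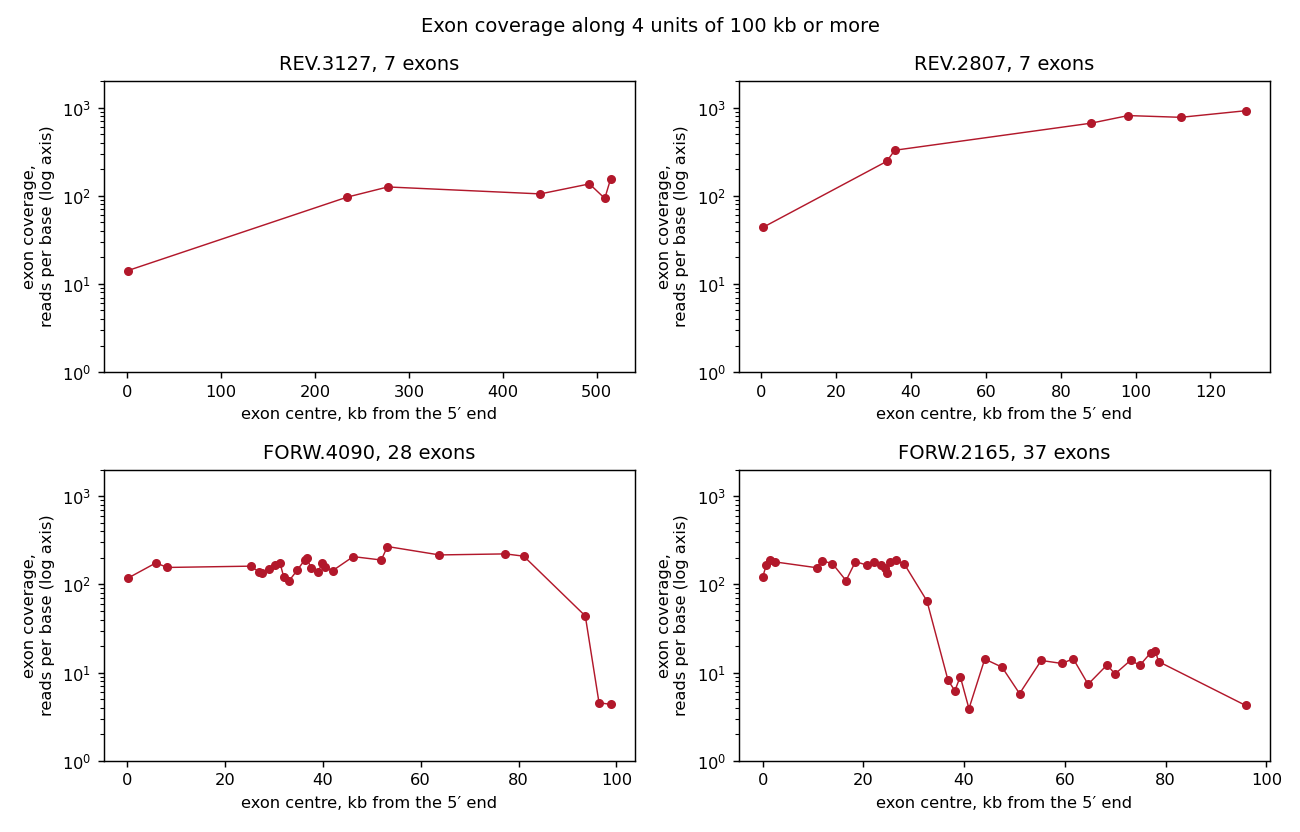
Exon coverage in reads per base (y axis, log scale) against the distance of the exon centre from the 5′ end in kb (x axis) for 4 very long TUs, each point 1 exon of the pooled assembly. Coverage climbs from 43.7 in the first to 920.6 in the last exon of REV.2807, is low in the first exon alone of REV.3127, and drops to 4.36 and 4.25 in the last exons of FORW.4090 and FORW.2165.

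Over the 608 very long TUs with 5 or more exons, the median log2 ratio of coverage in the last to that in the first 20% of the exonic length was −0.047 (−0.15 to 0.08), against −0.25 (−0.32 to −0.19) in 2523 TUs of 20 to 50 kb. The order of the classes was not stable, because the difference of 0.20 became −0.13 once the first and the last exon were left out and −0.015 without chromosomes 1 to 5. Coverage was at least 2-fold lower in the last 20% in 127 very long TUs (20.9%), where all TUs of these chromosomes with 5 or more exons gave 24.3%, and TUs of 20 to 50 kb 28.6%. It was at least 2-fold higher in the last 20% in 131 very long TUs (21.5%), where all such TUs gave 20.6% and TUs of 20 to 50 kb 16.6%. Both shares of very long TUs were close to those of all TUs.

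First exons had low coverage in both classes. Their coverage was more than 2-fold below the median exon of the same TU in 371 of 608 very long TUs (61.0%, 57.1 to 64.8) and in 1504 of 2523 TUs of 20 to 50 kb (59.6%, 57.7 to 61.5). For the last exon this held in 179 very long TUs (29.4%, 26.0 to 33.2) and in 947 TUs of 20 to 50 kb (37.5%, 35.7 to 39.4). Over all 8364 TUs of these chromosomes with 5 or more exons the share was 57.5% for the first and 32.3% for the last exon. Both values lay within the intervals of very long TUs. The highest exon coverage of a very long TU exceeded its lowest by a median of 6.43-fold, against 3.99-fold in TUs of 20 to 50 kb, which also have fewer exons.

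The slope of coverage differed more between exonic shares than between the classes of span. In very long TUs with an exonic share under 5% the median log2 ratio was 0.29 (n = 266), and it was −0.22 for 5% to 20% (n = 237), −0.54 for 20% to 50% (n = 70) and −0.53 for 50% or more (n = 35). TUs of 20 to 50 kb gave 0.20, 0.11, −0.59 and −0.92 in the same 4 classes (n = 62, 1149, 932 and 380). The median FPKM was taken over all TUs of these exonic shares, whatever their exon number. It was 6.47, 4.28, 2.15 and 1.34 in very long TUs (n = 287, 258, 92 and 74). In TUs of 20 to 50 kb it was 1.90, 10.7, 5.54 and 1.69 (n = 97, 1321, 1145 and 1819). Very long TUs thus had the higher median FPKM of the leading transcript under 5% and the lower median in the other 3 classes.

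**Figure D4:**
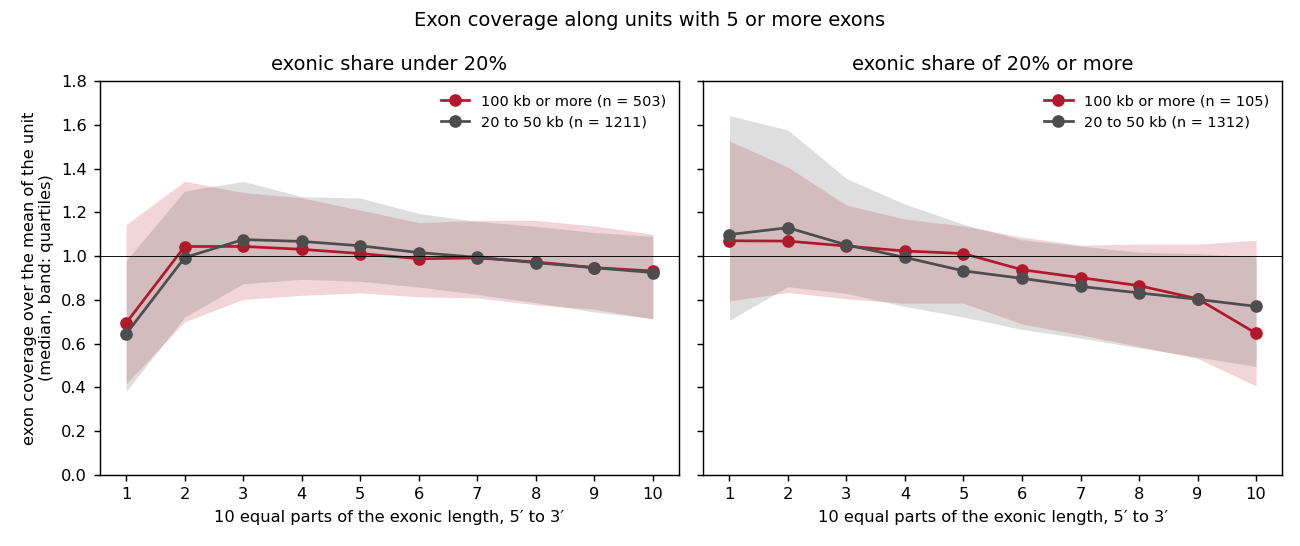
Exon coverage in 10 equal parts of the exonic length from the 5′ to the 3′ end, divided by the mean of the TU (y axis), for TUs with 5 or more exons; lines are medians, bands span the quartiles, red is 100 kb or more and grey 20 to 50 kb. With an exonic share under 20% (left) the first part is at 0.69 in very long TUs and 0.64 in TUs of 20 to 50 kb, and with 20% or more (right) the last part is at 0.65 in very long TUs and 0.77 in TUs of 20 to 50 kb.

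Very long TUs had more assembled isoforms. At least 2 transcripts were listed for 567 of the 711 (79.7%, 76.6 to 82.5) and for 2528 of the 4382 TUs of 20 to 50 kb (57.7%, 56.2 to 59.1), and 6 or more for 77 very long TUs (10.8%) and 124 TUs of 20 to 50 kb (2.83%). The transcript with the highest FPKM held a median of 61.0% of the summed FPKM in very long TUs and 82.7% in TUs of 20 to 50 kb. At like exon number the share with 2 or more transcripts was again higher in very long TUs, for example 76.6% in very long TUs and 62.0% in TUs of 20 to 50 kb with 10 to 19 exons. It was also higher on 18 of the 19 chromosomes with 5 or more very long TUs.

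The isoforms of very long TUs differed more often at their 3′ than at their 5′ ends. Of the 567 with several transcripts, 400 had more than 1 3′ end and 264 more than 1 5′ end, and 104 had 1 of each. Ends were not counted in TUs of 20 to 50 kb or in all TUs. The excess at the 3′ end is therefore not shown to be particular to very long TUs. Every transcript was 100 kb or longer in 238 of them, whereas in 107 only the leading one was, and 65 also held a transcript under 20 kb. REV.6670 on chromosome 9 had the most transcripts, 11, with 3 5′ ends and 10 3′ ends and lengths of 59.1 to 369.5 kb. Its leading transcript ran over 141.4 kb, with 5 exons of which the last measured 38.1 kb, and held 28.5% of the summed FPKM. FORW.2677, the longest TU, had 9 transcripts of 82.4 to 838.7 kb with 4 5′ ends and 7 3′ ends, and 5 of them exceeded 100 kb. FORW.6267 on chromosome 8 also had 9, of 21.0 to 169.1 kb. Conversely, 297 TUs whose leading transcript was shorter than 100 kb had a minor transcript of that length, which would raise the number of very long TUs to 1008.

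Other TUs lay wholly inside the span of 154 very long TUs (21.7%, 18.8 to 24.8), against 554 TUs of 20 to 50 kb (12.6%, 11.7 to 13.7). Without chromosomes 1 to 5 this difference of 9.02 percentage points was 2.14. A nested TU of the same strand was found in 59 very long TUs (8.30%) and 122 TUs of 20 to 50 kb (2.78%), and one of the opposite strand in 115 very long TUs (16.2%) and 454 TUs of 20 to 50 kb (10.4%). Per length the order was the other way round. Very long TUs held 2.02 nested TUs per Mb of span, TUs of 20 to 50 kb 4.59 and all TUs of these chromosomes 4.13. The number per Mb was lower in very long TUs on 18 of 19 chromosomes. The share of TUs with a nested TU was higher in very long TUs on 9 and lower on 10 of these, so its difference had no direction shared by the chromosomes. For the opposite strand alone it was 1.40 per Mb in very long TUs and 3.64 in TUs of 20 to 50 kb.

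Nested TUs differed by strand. There were 234 of them in very long TUs (233 distinct), 72 on the strand of the host and 162 on the other strand. Those on the strand of the host had a median span of 14.0 kb and a median FPKM of 1.60, and those on the other strand 3.26 kb and 0.738. Over all TUs of these chromosomes the medians were 11.3 kb and 2.03. A single exon was listed for 30 of the 72 and for 94 of the 162. The FPKM was higher than that of the host in 24 of the 72 (33.3%) and in 24 of the 162 (14.8%). The longest intron of the host held 105. An exon of the host was overlapped by 6 of the 72 TUs on the same strand and by 66 of the 162 on the opposite strand. All 6 had a strand that differed from their run and came from the other run of the assembler than their host. No TU of the strand and run of its host thus overlapped a host exon. Strand and run were not separate here, so this contrast is tied to the assembly and is a description.

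Nested TUs were most frequent in very long TUs that consisted mostly of 1 intron. Among the 38 with a longest intron of 80% of the span or more, 14 (36.8%) held nested TUs, 47 in all, of which 44 lay in that intron. The share was 17.8% where the longest intron took up under 20% of the span. In TUs of 20 to 50 kb the shares in these 2 classes were close to each other, with 14.9% (20 of 134) and 13.1%. The 3 hosts named next held many of the 47. FORW.9734 had the most, 9, all on the opposite strand and all within its intron of 329.2 kb. Among them REV.9622, with 24 exons over 14.5 kb, had an FPKM of 6.37, above that of its host (1.14). REV.5270 on chromosome 6 (826258 to 1106608) held 7 in an intron of 274.2 kb, 5 on the opposite and 2 on its own strand. One of them, FORW.5406, had an FPKM of 24.9 against 4.16 for REV.5270. REV.10061 held 5, all on its own strand, with FPKM values of 0.522 to 1.29, near its own of 0.991.

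Very long TUs were not themselves nested in a longer TU in any case (0 of 711, where the limit of 3 counts allows a share of up to 0.422% and the Wilson interval one of up to 0.537%), whereas 82 TUs of 20 to 50 kb were. Only a longer TU can hold a TU, so this count is tied to the rule of span and is a description. Another TU was partly overlapped by 195 very long TUs (27.4%) and by 1190 TUs of 20 to 50 kb (27.2%). Very long TUs overlapped each other in 5 pairs. In 4 of these the partners lay on opposite strands and shared 1.02 to 8.82 kb at their ends. In the remaining pair, FORW.5400 and FORW.5401 on chromosome 6, both on the forward strand, shared 71.6 kb, with FPKM values of 3.28 and 41.1.

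The gap to the nearest TU that did not overlap, on either strand, had a median of 5.97 kb (4.82 to 7.03) for very long TUs and 4.47 kb (4.13 to 4.72) for TUs of 20 to 50 kb. Upstream the median gap was 15.8 kb for very long TUs and 12.1 kb for TUs of 20 to 50 kb, and downstream 17.7 kb and 12.9 kb for these classes. On single chromosomes the median gap was larger for very long TUs on 10 and smaller on 9 of 19, so the chromosomes did not share its direction. The next TU downstream that did not overlap was on the opposite strand, a convergent arrangement, for 289 of 710 very long TUs (40.7%, 37.2 to 44.4) and for 1501 of 4379 TUs of 20 to 50 kb (34.3%, 32.9 to 35.7). Convergent partners that overlap the 3′ end are not counted in these shares. Over all TUs this share was 40.3%, so very long TUs were at the level of the whole set.

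Very long TUs were found on 23 of the 27 chromosomes. Chromosomes 1 to 5, the large macrochromosomes, held 451 of them (63.4%, 59.8 to 66.9), against 56.2% (54.7 to 57.7) of TUs of 20 to 50 kb and 52.2% of all TUs. They made up 4.23% of the TUs of chromosomes 1 to 5, 3.67% of those of chromosomes 6 to 15 and 1.06% of those of chromosomes 17 to 28. Per Mb of extent there were 0.733, 0.939 and 0.403 very long TUs in these groups, against 0.750 on all 27 chromosomes. The higher share on chromosomes 1 to 5 thus held against other TUs and not per length. Together they covered 115.9 Mb, or 12.2% of the extent of these chromosomes from first to last TU. The covered share was 12.2% on chromosomes 1 to 5, 14.7% on chromosomes 6 to 15 and 6.23% on chromosomes 17 to 28.

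Chromosome 7 had the most very long TUs per length, with 43 or 1.18 per Mb, and 19.4% of its extent lay in them. Chromosome 12 followed in the share covered with 18.1%. Chromosome 1 had the highest number, 124, but 0.62 per Mb. On chromosomes 23, 25, 26 and 27 none was found among 279, 276, 275 and 295 TUs, and chromosome 28 had 1, REV.10061, whose longest intron made up 98.1% of its span.

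**Figure D5:**
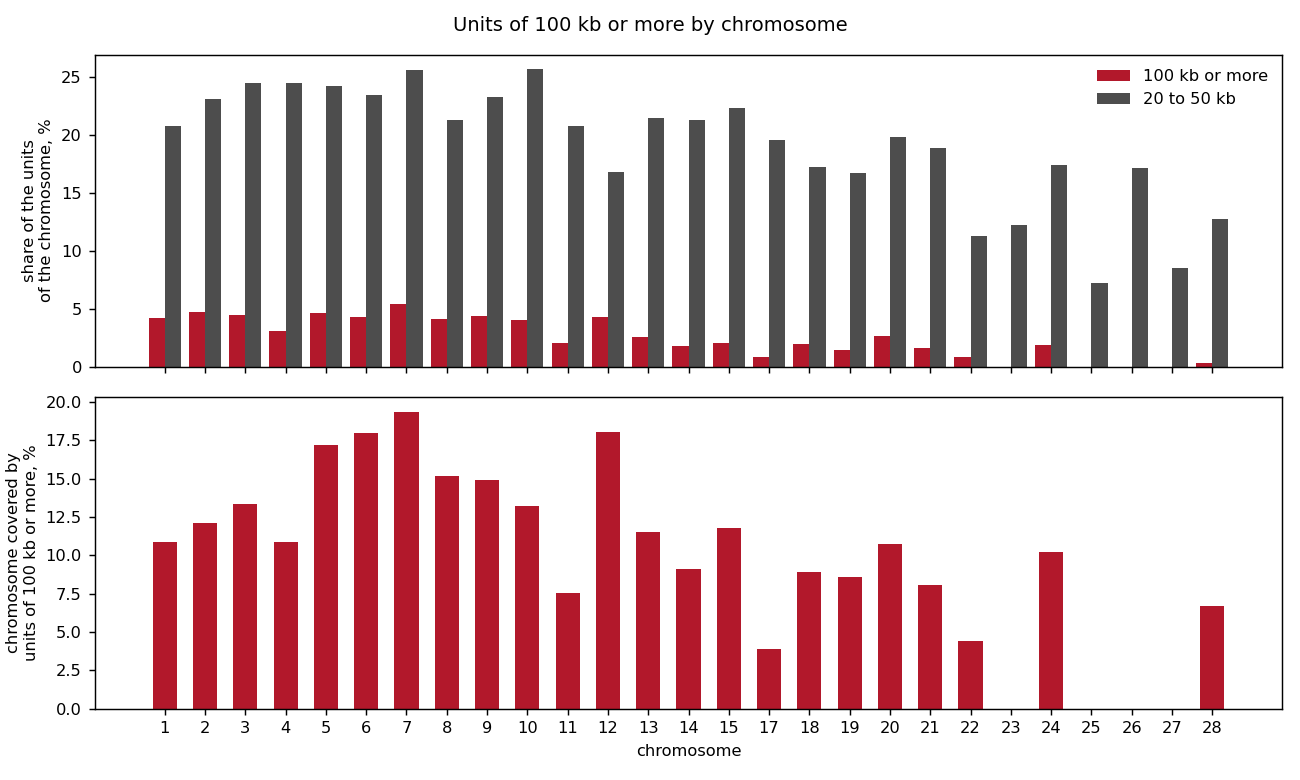
Upper panel, TUs of 100 kb or more (red) and of 20 to 50 kb (grey) as a percentage of all TUs of each chromosome; lower panel, percentage of the extent of each chromosome covered by TUs of 100 kb or more. The covered share is highest on chromosome 7 (19.4%), and no bar stands on chromosomes 23, 25, 26 and 27.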

How the data were processed

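The deposited file is a de novo assembly with read coverage per base, FPKM and TPM per transcript and read coverage per exon, all computed by the authors. Per the study's methods and the file header, the authors trimmed reads with cutadapt, aligned them with HISAT2 to ASM2420605v2, split them by strand, marked duplicates with SAMtools, merged unique reads of all experiments and ran StringTie 2.2.2 once per strand. Thresholds were 1.2 reads per base (3.5 where a transcript had no intron), an isoform fraction of 0.05, 5 junction reads with an anchor of 10 bp, a length of 1000 bp and a gap of 300 bp. Weak transcripts are therefore missing, and each run was scaled on its own. The number of value columns left out was 0.

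A unit's leading transcript gave its exons, introns and span, and exons were ordered by the strand in the file. Coverage ratios weight exons by length and need 5 or more exons. Nested units lie wholly inside another unit, and gaps were taken between units that do not overlap. Single units were named by rank: longest span, highest FPKM, most exons, longest intron, most transcripts, most nested units, extreme coverage ratios, longest single-exon units and those next to the threshold. Units nested in or overlapping them, and the classes of exon number, exonic share and intron share, were chosen after their values were seen. The members and measures were chosen with earlier results of these data known. Scripts (Python 3.11.15, pandas 2.3.3, SciPy 1.17.1) were tested on simulated data.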

Additional observations from a re-analysis of the deposited data

How the results depend on the processing

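Of 92 recalculations, 59 changed little, 27 moved and 6 changed sign, judged by a factor of 1.5 for the number of TUs and by the combined interval widths for the other results. The 711 very long TUs became 1008 by the longest transcript, 346 in the forward run, 365 in the reverse run, 260 without chromosomes 1 to 5 and 297 without the 414 whose span less the longest intron is under 100 kb. The other values are differences, very long TUs minus TUs of 20 to 50 kb unless another class is named. With the longest transcript of each TU, the differences were 7 exons, 45.6 kb of longest intron, −27.15 points of exonic share, 28.2 points of TUs with several transcripts, 12.3 points with nested TUs and −6.21 FPKM percentile points. With FPKM of at least 1 they were 8 exons, −24.6 points of exonic share, 18.4 points with several transcripts and −1.46 percentile points. With multi-exon TUs only they were 8 exons, −22.4 points, 17.3 points and −0.86 percentile points. Without the 414 TUs they were 14 exons and 38.7 kb. Without chromosomes 1 to 5 they were 7 exons, 39.03 kb, −25.2 points of exonic share, 2.14 points with nested TUs, −6.07 percentile points and −0.015 for the log2 coverage ratio. Against TUs of 50 to 100 kb they were 6 exons, 31.8 kb, −12.6 points of exonic share, 9.68 points with several transcripts and 5.14 points with nested TUs. The log2 coverage ratio was −0.13 without terminal exons, and the gap difference 2.80 kb among neighbours of at least 5 kb. The causes were not tested. No paired analysis was possible because the pooled assembly carries no replicate numbers.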

Other observations

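The nearest TU was exactly 150 bp away from 30 very long TUs (4.22%), from 174 TUs of 20 to 50 kb (3.97%) and from 817 of all 20425 TUs (4.00%). In all 30 cases of very long TUs, and in 172 of the 174 of TUs of 20 to 50 kb, the neighbour lay on the same strand. Among very long TUs, FORW.4784 had such a gap upstream.

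The strand of a TU differed from its run in 0 of 711 very long TUs, in 27 TUs of 20 to 50 kb (0.616%) and in 409 of all TUs (2.00%). Among the TUs nested in very long TUs it differed in 11 of 234.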
